A study of Mus musculus with 6 samples.

Results

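The DNA replication licensing and replisome genes described here are 46 genes taken by name: origin recognition, helicase loading and activation factors, DNA polymerases, the sliding clamp and its loader, the enzymes that finish Okazaki fragments, and factors that protect the fork or rebuild chromatin behind it. All 46 were found among the 49671 gene identifiers of the count table, and all 46 passed the filter on low counts. The libraries hold messenger RNA of LSK cells, the bone marrow fraction in which blood stem cells and multipotent progenitors are found, from BALB/c mice. The marrow cells had been infected with a retrovirus that knocks down Cxxc5 (shCxxc5, 3 libraries numbered 2, 3 and 4) or with one that targets no mouse gene (shCtrl, 3 libraries with the same numbers). All cells in both groups were GFP-positive, that is infected, and each library pooled cells from several animals. RNA came from 20000 to 50000 sorted cells.

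Replication is prepared in G1, when the origin recognition complex, Cdc6 and Cdt1 load the ring-shaped MCM helicase onto DNA, a step called licensing that geminin blocks after S phase has begun. The Dbf4-dependent kinase Cdc7 and the factors Cdc45 and GINS then turn the loaded ring into the active CMG helicase. Behind it, polymerase alpha with primase starts each strand, RFC loads the PCNA clamp, polymerases delta and epsilon extend, and Fen1, Dna2 and Lig1 join the lagging-strand fragments. Transcription of many of these genes is driven by E2F factors at the G1 to S transition, and in marrow most cells of the stem cell pool rest outside the cycle while progenitors divide.

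Promoter sequence from RefSeq (GRCm38.p6) was read for 37 of the 46 genes, which have 44 windows in all, and the 250 bases before the transcription start were searched on both strands for the E2F motifs TTTCCCGC and TTTGGCGC. They occurred in 6 of these windows (13.6%), against 427 of 32851 windows of all genes (1.30%). With TTTCGCGC added, the shares were 18.2% and 1.53%. A match describes these letters and is no evidence of binding. The stretches around the match are shown for the 5 genes with one among those whose values are given by library below. Mcm7 also held a match but is not among those. Cdc6, Mcm5, Mcm6, Mcm7 and Gins3 were among the genes that rose in replicates 3 and 4, and Pola1 was not. Whether a match goes with a rise was not tested. Capitals mark the motif on either strand, each is written 5′ to 3′ along the gene's own strand, and coordinates are GRCm38.
Cdc6, chr11:98907983-98908050, plus strand: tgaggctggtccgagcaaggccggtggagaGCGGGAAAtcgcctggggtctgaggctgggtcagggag
Gins3, chr8:95633488-95633555, plus strand: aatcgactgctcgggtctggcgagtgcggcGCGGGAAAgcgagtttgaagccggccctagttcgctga
Mcm5, chr8:75109330-75109397, plus strand: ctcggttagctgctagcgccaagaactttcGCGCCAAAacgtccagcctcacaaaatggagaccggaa
Mcm6, chr1:128359715-128359845, minus strand: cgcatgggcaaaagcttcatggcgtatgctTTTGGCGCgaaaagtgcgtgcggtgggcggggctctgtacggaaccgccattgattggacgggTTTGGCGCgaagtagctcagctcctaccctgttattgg
Pola1, chrX:93632256-93632323, minus strand: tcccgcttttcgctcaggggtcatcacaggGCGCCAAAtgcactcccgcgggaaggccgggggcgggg
The Mcm6 stretch holds 2 matches. The match nearest to the start ends 34 bases before it in Gins3 and 40 bases before it in Mcm6, 131 in Cdc6, 131 in Pola1 and 142 in Mcm5.

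Total counts per library ran from 15002414 to 27754019. Cxxc5 itself stood at 6.74, 17.4 and 17.9 CPM in the shCxxc5 libraries, against 82.2, 59.9 and 57.9 CPM in the shCtrl libraries, always in the order of replicates 2, 3 and 4, so the groups did not overlap (exact two-sided permutation test, p = 0.1, the smallest that 3 against 3 allows). Both libraries numbered 2 differed widely from those numbered 3 and 4. Ly6a, the gene for the surface protein Sca-1 used to sort LSK cells, had 33.1, 703 and 711 CPM in the shCxxc5 libraries, against 46.4, 804 and 786 CPM in the shCtrl libraries, low in both replicate 2 libraries. None of 12 LSK and stem cell markers was at 0 in any library, and their summed CPM was 1321 and 2779 to 2804 in shCxxc5 replicate 2 and replicates 3 and 4, against 1858 and 2728 to 2816 in shCtrl. Summed CPM of 15 megakaryocyte markers was 1819 in shCxxc5 replicate 2 and 439.6 to 445 in shCxxc5 replicates 3 and 4, against 7449.9 in shCtrl replicate 2 and 613 to 618 in shCtrl replicates 3 and 4. For 15 granulocyte and monocyte markers the sums were 6386 and 1668 to 1734 in shCxxc5, against 1093 and 1572 to 1574 in shCtrl. Values for the 46 genes are therefore given for the pair of each number, for all 6 libraries, and for replicates 3 and 4 alone. Nothing in the labels says whether equal numbers mark separate infections, so the p-values here reflect how far single libraries differ, and this may be a technical difference.

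Within each pair of equal number, the replication genes stood slightly higher in shCxxc5 cells. Their summed share of all counts was 0.779%, 0.868% and 0.860% in shCxxc5 replicates 2, 3 and 4, against 0.728%, 0.803% and 0.804% in shCtrl replicates 2, 3 and 4. The groups overlapped, because shCxxc5 replicate 2 lay below shCtrl replicates 3 and 4. The median log2 ratio of the 46 genes was 0.094, 0.14 and 0.11 in pairs 2, 3 and 4, beside -0.038, -0.0086 and -0.0047 over all tested genes. Ratios above 0 were found for 31, 40 and 39 of the genes in those pairs (all tested genes 46.6%, 47.4% and 49.2%), and 26 (56.5%) were above 0 in all 3, against 19% of all tested genes. The largest single ratio was 0.59 in pair 2, 0.51 in pair 3 and 0.46 in pair 4. Within bulk libraries, more cells of a type and more RNA per cell cannot be told apart.

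**Figure D1:**
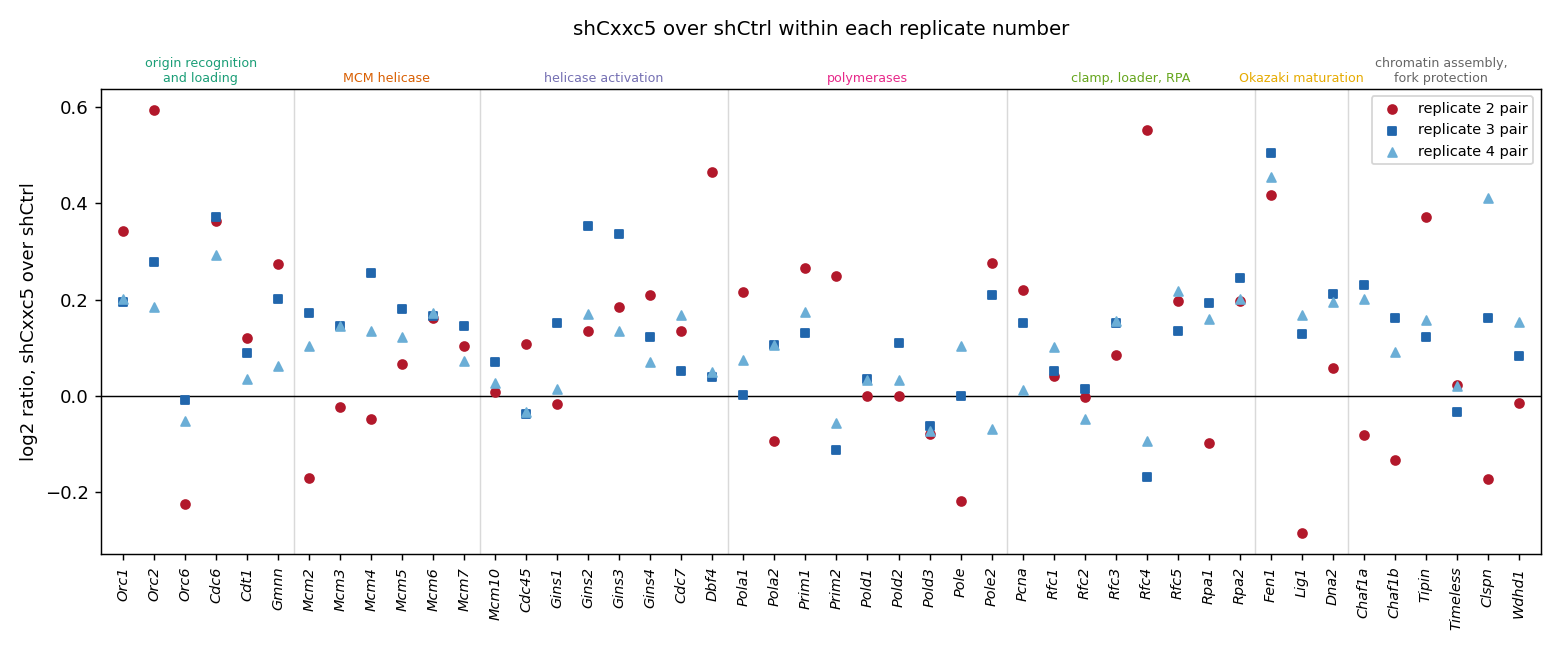
Log2 ratio of shCxxc5 over shCtrl (vertical axis, from TMM-scaled CPM) for each of the 46 genes, ordered by function, in the pairs numbered 2 (circles), 3 (squares) and 4 (triangles). Pair 2 spreads from -0.28 to 0.59, pair 3 from -0.17 to 0.51 and pair 4 from -0.093 to 0.46.

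Over all 6 libraries, 0 of the 46 genes passed edgeR's quasi-likelihood test after Benjamini-Hochberg adjustment over all 14637 tested genes, as did 0% of all genes. At an unadjusted p under 0.05 there were 3 (Fen1, Orc2 and Cdc6; 6.52%), against 3.93% of all genes. DESeq2 called 1, Fen1, at an adjusted p of 0.0140, against 0.13% of all genes, and 1 with the replicate number as a block (all genes 1%). limma-voom called 0, with 0% of all genes called. With the block edgeR again called 0 of them, and 0% of all genes, and 10 had an unadjusted p under 0.05 (all genes 12.3%). The fitted median log2 fold change was 0.11, with 42 of the genes above 0, beside -0.022 over all genes. It was 0.038 without shCtrl replicate 2, 0.17 without shCxxc5 replicate 2, 0.064 without shCxxc5 replicate 3 and 0.066 without shCxxc5 replicate 4. Groups did not overlap for 6 genes on the higher side (13.0%, against 6.72% of all genes): Orc2, Cdc6, Gins3, Cdc7, Dbf4 and Fen1. On the lower side there were 0, against 6.35% of all genes.

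In replicates 3 and 4 alone, 2 libraries per group, 24 of the 46 genes rose in shCxxc5 cells and 0 fell at an edgeR adjusted p under 0.05. That is 52.2% of them, against 11% of all tested genes called higher and 9% called lower (20% in all). Among genes with a mean CPM of at least that of the lowest member (25.7) the shares were 30.6% called, 19.4% higher and 11.2% lower. The changes were small, with a median log2 fold change of 0.13 and a range from -0.13 to 0.49, beside a median of -0.0030 over all genes. The biological coefficient of variation was 0.0294 in these 4 libraries and 0.312 over all 6. The labels do not say whether replicates 3 and 4 are separate infections, so the small spread may be technical. In that case the adjusted p-values of these 4 libraries do not measure variation between infections. By function, all 6 MCM subunits and all 3 Okazaki fragment genes rose, as did 5 of 6 fork and chromatin factors, 4 of 8 clamp, loader and RPA genes, 3 of 6 origin and loading genes, 2 of 8 helicase activation genes and 1 of 9 polymerase genes. Whether these functional groups differ from each other was not tested.

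**Figure D2:**
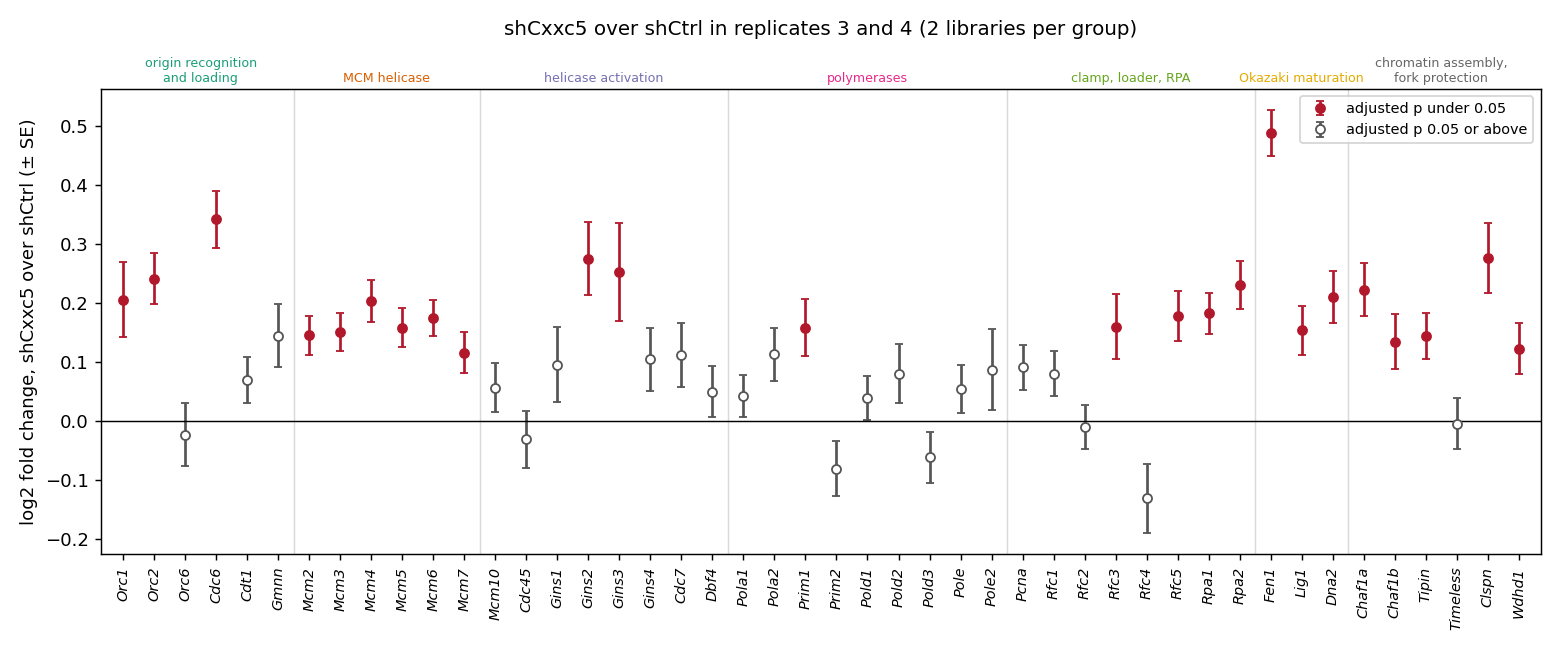
Fitted log2 fold change of shCxxc5 over shCtrl in replicates 3 and 4 (vertical axis, points with SE, 2 libraries per group) for each of the 46 genes, ordered by function. Filled points passed edgeR's test after adjustment, and all 24 of them lie above 0, with Fen1 highest at 0.49.

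These calls depend on few libraries. DESeq2 called 15 of the genes on the same 4 libraries (all genes 9.53%), and 8 with the replicate block (all genes 4.23%). With the block edgeR called 25, the 24 and Gmnn (all genes 23.3%), and limma-voom 23 (all genes 19.4%). Without shCtrl replicate 3 the count was 14, and 13 genes stayed called whichever of the 4 libraries was left out: Orc2, Cdc6, Mcm3, Mcm4, Mcm5, Mcm6, Rfc5, Rpa1, Rpa2, Fen1, Dna2, Chaf1a and Clspn. Leaving out a library leaves 1 in its group, and shares of all genes called in those fits are not given here. Whether the kept and lost calls are particular to these genes was therefore not tested. Markers of other cells also moved between these 4 libraries. Of the tested markers, 6 of 12 megakaryocyte genes and 7 of 12 erythroid genes were lower in shCxxc5 and 1 erythroid gene higher, and 4 of 15 granulocyte and monocyte genes were higher and 3 lower. Also, 3 of 9 mast cell, basophil and eosinophil genes were higher and 2 lower, 3 of 12 LSK and stem cell genes higher and 2 lower, 1 of 18 interferon-response genes higher and 5 lower, and 0 of 5 lymphoid genes called. Over all genes 11% were higher and 9% lower. Erythroid markers summed to 665 to 702 CPM in shCxxc5 replicates 3 and 4, against 634 to 658 CPM in shCtrl replicates 3 and 4. Among markers at 0 counts there, Mpig6b of the megakaryocyte list was at 0 in all 4 and Cd3e of the lymphoid list in all 6 libraries. The part of these markers in the rise of the replication genes was not tested.

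Among origin recognition and loading genes, the loader Cdc6 and the origin recognition subunits Orc2 and Orc1 rose in replicates 3 and 4. Cdc6, the ATPase that brings the MCM ring to the origin, had 85.5, 102 and 102 CPM in the shCxxc5 libraries, against 66.4, 79.0 and 83.3 CPM in the shCtrl libraries. Every shCxxc5 library was above every shCtrl library, and the rise in replicates 3 and 4 was 0.34 (SE 0.048) on the log2 scale, with an edgeR adjusted p of 5.65e-06. Orc2 had 154, 159 and 149 CPM in the shCxxc5 libraries, against 102, 131 and 131 CPM in the shCtrl libraries. Its groups did not overlap either, and it rose by 0.24 (SE 0.043), edgeR adjusted p = 0.000139, in replicates 3 and 4. The ratio of Orc2 was larger in pair 2, at 0.59, and the difference between that pair and the others passed edgeR's test (adjusted p = 0.000169). Here and below, this test of the difference rests on a single replicate 2 library per group, and it called 35.8% of all genes. Orc1, the ATPase subunit of the origin recognition complex, had 41.8, 51.3 and 53.9 CPM in the shCxxc5 libraries, against 32.9, 44.7 and 46.8 CPM in the shCtrl libraries. It was higher in each pair but the groups overlapped, and its rise in replicates 3 and 4 of 0.21 (SE 0.063), edgeR adjusted p = 0.0200, was lost without shCtrl replicate 3, shCxxc5 replicate 3 or shCxxc5 replicate 4 (edgeR adjusted p = 0.189, 0.0552 and 0.177) and in DESeq2. Cdt1, the partner of Cdc6, and its inhibitor geminin (Gmnn) stood at 0.069 and 0.14 there, and Orc6 at -0.023, none of them called, though with the replicate block Gmnn passed (edgeR adjusted p = 0.0359). The medians of the 6 genes were 0.31, 0.20 and 0.12 in pairs 2, 3 and 4.

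Exons of Orc2 share 1150 of 3857 bases with Nif3l1 on the other strand, and the strand setting of the counting is not given in the sources used here. Nif3l1 rose by 0.25 (SE 0.064) in replicates 3 and 4, edgeR adjusted p = 0.00538, about as much as Orc2, so reads of these genes may not be told apart.

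**Figure D3:**
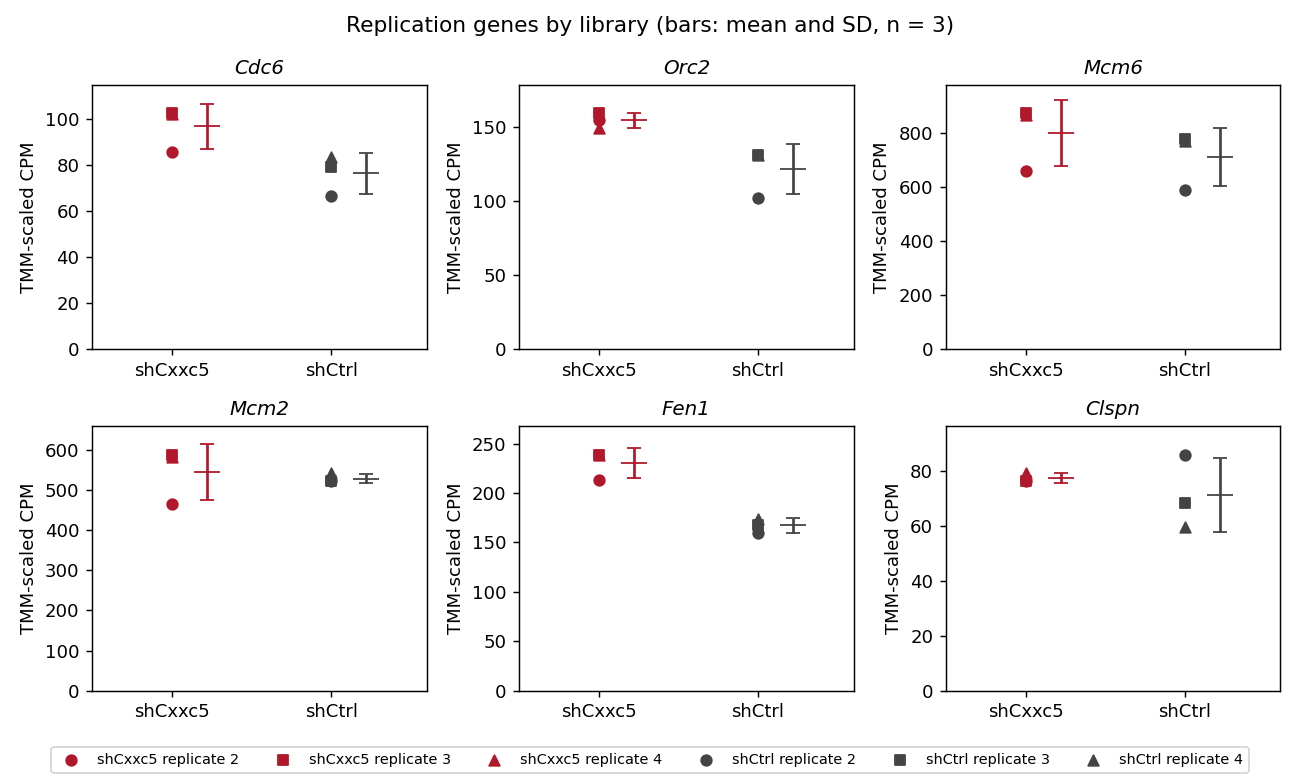
TMM-scaled CPM (vertical axes, from 0) of Cdc6, Orc2, Mcm6, Mcm2, Fen1 and Clspn in each shCxxc5 and shCtrl library, with the mean and SD of 3 libraries beside the points. Cdc6, Orc2 and Fen1 do not overlap between the groups, whereas Mcm6, Mcm2 and Clspn do. For Mcm6 both replicate 2 libraries (circles) lie below the others. For Mcm2 in shCtrl and Clspn in shCxxc5 the circle lies close to replicate 3.

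The MCM2 to MCM7 subunits, which form the ring of the replicative helicase, rose together in replicates 3 and 4, by 0.12 for Mcm7 to 0.20 for Mcm4. DESeq2 called 5 of the 6 there (all genes 9.53%), and Mcm7 did not pass (adjusted p = 0.0746). In pair 2 the subunits did not rise together, as 3 were above 0 and 3 below. The medians in pairs 2, 3 and 4 were 0.021, 0.17 and 0.13. Mcm6 had 658, 872 and 866 CPM in the shCxxc5 libraries, against 588, 777 and 768 CPM in the shCtrl libraries. It was higher in each pair by nearly the same ratio, yet both replicate 2 libraries were below the other 4. In replicates 3 and 4 Mcm6 rose by 0.17 (SE 0.031), edgeR adjusted p = 0.00013. Mcm5 had 498, 562 and 544 CPM in the shCxxc5 libraries, against 475, 496 and 499 CPM in the shCtrl libraries, and rose by 0.16 (SE 0.033), edgeR adjusted p = 0.000773, in replicates 3 and 4. Mcm3 had 499, 586 and 581 CPM in the shCxxc5 libraries, against 507, 530.3 and 525 CPM in the shCtrl libraries. It rose by 0.15 (SE 0.032) in replicates 3 and 4, edgeR adjusted p = 0.00102, but its log2 ratio in pair 2 was -0.023. The effect in pair 2 was lower than in pairs 3 and 4 for Mcm2, Mcm3 and Mcm4 by edgeR's test of the difference (adjusted p = 4.18e-05, 0.0193 and 0.00211). With DESeq2 the adjusted p of that difference was 0.000957 for Mcm2, 0.126 for Mcm3, which did not pass, and 0.0497 for Mcm4, just under the threshold. Across the 46 genes that test called 16 (34.8%), near the 35.8% of all genes, and its residual degrees of freedom come from replicates 3 and 4 only. Without shCtrl replicate 3 the calls of Mcm2 and Mcm7 in replicates 3 and 4 were lost (edgeR adjusted p = 0.0607 and 0.147), and that of Mcm7 also without shCxxc5 replicate 3 (0.224).

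Per kilobase of annotated exon, the MCM subunits were among the most abundant of the 46 transcripts. On this scale, CPM per kilobase averaged over the 6 libraries, Mcm6 stood highest at 162 (libraries from 126 to 187), then Mcm3 at 143 (libraries from 133 to 156) and Mcm5 at 128 (libraries from 119 to 141). Mcm4 stood at 91.5 (libraries from 79.1 to 106). Mcm7 and Mcm2 were lowest, at 77.7 (libraries from 61.9 to 89.0) and 77.2 (libraries from 66.7 to 84.6), and did not differ beyond the spread of the libraries. The GINS subunits covered a wider range, with Gins4 at 50.9 (libraries from 40.4 to 57.3) and Gins3, the lowest of all 46 genes, at 9.48 (libraries from 8.31 to 10.5). Exon lengths count every annotated exon, so a gene with long unused exons is placed too low on this scale.

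**Figure D4:**
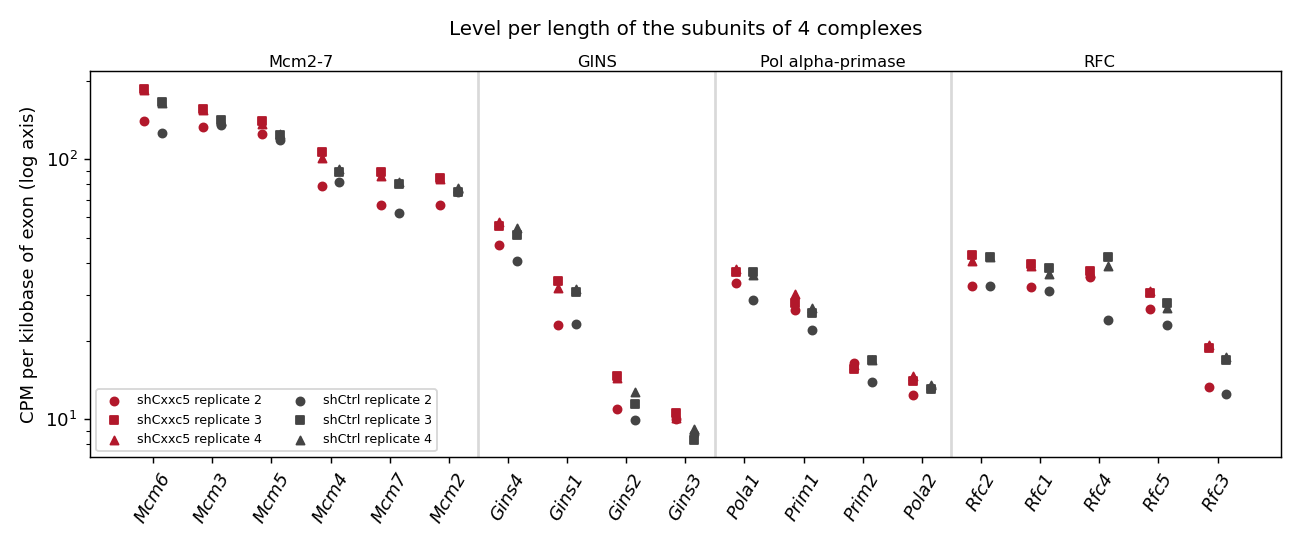
CPM per kilobase of exon (vertical log axis) of the subunits of the MCM ring, GINS, polymerase alpha with primase, and RFC in each library, shCxxc5 left of shCtrl for each gene. Mcm6 and Mcm3 lead the MCM ring, and the GINS subunits run from 50.9 for Gins4 to 9.48 for Gins3.

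Of the helicase activation genes, the GINS subunits Gins2 and Gins3 rose in replicates 3 and 4, and Gins1, Gins4, Mcm10, Cdc45, Cdc7 and Dbf4 were not called. Gins3 had 27.1, 28.5 and 27.3 CPM in the shCxxc5 libraries, against 23.8, 22.5 and 24.8 CPM in the shCtrl libraries. Its groups did not overlap, but its rise of 0.25 (SE 0.083) in replicates 3 and 4, edgeR adjusted p = 0.0308, was lost without shCtrl replicate 3, shCxxc5 replicate 3 or shCxxc5 replicate 4 (edgeR adjusted p = 0.286, 0.243 and 0.0749) and in DESeq2. Gins2 had 44.9, 59.9 and 58.8 CPM in the shCxxc5 libraries, against 40.8, 46.9 and 52.3 CPM in the shCtrl libraries. It rose by 0.28 (SE 0.062), edgeR adjusted p = 0.00193, a call lost without shCtrl replicate 3 (0.110). Exons of Gins2 share 2758 bases with Gse1 on the other strand, which itself stood at 46.4, 37.6 and 39.0 CPM in the shCxxc5 libraries, against 108, 38.4 and 38.3 CPM in the shCtrl libraries. The kinase gene Cdc7 had 78.5, 72.9 and 79.0 CPM in the shCxxc5 libraries, against 71.5, 70.4 and 70.3 CPM in the shCtrl libraries. Its regulatory subunit Dbf4 had 147, 126 and 128 CPM in the shCxxc5 libraries, against 107, 123 and 124 CPM in the shCtrl libraries. For both, the lowest shCxxc5 library exceeded the highest shCtrl library, with fitted values in replicates 3 and 4 of 0.11 (SE 0.054) and 0.050 (SE 0.043) that did not pass (edgeR adjusted p = 0.156 and 0.471). For Dbf4 pair 2 stood out, with a log2 ratio of 0.47, against 0.039 and 0.050 in pairs 3 and 4, and edgeR's test of that difference passed (adjusted p = 1.24e-05). Cdc45 stood at -0.031 and Mcm10, which helps to start the helicase, at 0.056 in replicates 3 and 4.

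The DNA polymerase genes had medians near 0, of 0.00099, 0.035 and 0.033 on the log2 scale for pairs 2, 3 and 4, and Prim1 was the 1 of 9 that rose in replicates 3 and 4. Prim1, the catalytic subunit of primase, had 102, 108 and 117 CPM in the shCxxc5 libraries, against 84.8, 98.8 and 104 CPM in the shCtrl libraries. It was higher in each pair and rose by 0.16 (SE 0.048), edgeR adjusted p = 0.0202, in replicates 3 and 4. That call was lost without shCtrl replicate 3 and without shCxxc5 replicate 4 (edgeR adjusted p = 0.253 and 0.306) and in DESeq2. Without shCxxc5 replicate 4 the log2 fold change of Prim1 was 0.10. Pola1, the catalytic subunit of polymerase alpha, had 294, 325 and 333 CPM in the shCxxc5 libraries, against 253, 325 and 316 CPM in the shCtrl libraries. It stood at 0.042 (SE 0.035) in replicates 3 and 4, edgeR adjusted p = 0.457, and higher in pair 2, at 0.22 (adjusted p of the difference 0.0220 with edgeR and 0.0954 with DESeq2, which did not pass). Pole2, the second subunit of polymerase epsilon, had 41.9, 49.4 and 46.6 CPM in the shCxxc5 libraries, against 34.6, 42.7 and 48.9 CPM in the shCtrl libraries, and its groups overlapped. Pold1, Pold2 and Pold3 of polymerase delta stood at 0.039, 0.080 and -0.062 in replicates 3 and 4, the catalytic subunit Pole at 0.054 and Pola2 at 0.11. Prim2, the other primase subunit, stood at -0.081 in replicates 3 and 4 but at 0.25 in pair 2. The adjusted p of that difference was 0.000907 with edgeR and 0.0391 with DESeq2. In pair 2 the log2 ratios of the 9 polymerase genes ran from -0.22 to 0.28. SEs of the polymerase genes in replicates 3 and 4 ran from 0.035 to 0.069.

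Among the clamp, clamp loader and single-strand binding genes, Rpa1, Rpa2, Rfc3 and Rfc5 rose in replicates 3 and 4. Rpa2, the middle subunit of the protein RPA that coats single-stranded DNA, had 121, 163 and 163 CPM in the shCxxc5 libraries, against 106, 138 and 141 CPM in the shCtrl libraries. It was higher in each pair, both replicate 2 libraries were below the other 4, and the rise in replicates 3 and 4 was 0.23 (SE 0.041), edgeR adjusted p = 0.00014. Rpa1, its large subunit, rose there by 0.18 (SE 0.035), edgeR adjusted p = 0.000327, and stood at -0.10 in pair 2, a difference that passed edgeR's test (adjusted p = 0.000451). Rfc5, a small subunit of the clamp loader, had 123, 143 and 145 CPM in the shCxxc5 libraries, against 108, 130.4 and 125 CPM in the shCtrl libraries, and rose by 0.18 (SE 0.043), edgeR adjusted p = 0.00305. Pcna, the clamp itself, had 228, 267 and 252 CPM in the shCxxc5 libraries, against 195, 240.1 and 250 CPM in the shCtrl libraries. The groups overlapped and its value in replicates 3 and 4, 0.091 (SE 0.038), did not pass (edgeR adjusted p = 0.0979). Another clamp loader gene, Rfc4, stood at 0.55 in pair 2 and at -0.17 and -0.093 in pairs 3 and 4 (edgeR adjusted p of the difference 7.45e-07). With DESeq2, Rfc3 was not called in replicates 3 and 4 (adjusted p = 0.215). The call of Rfc3 (0.16, SE 0.055) was lost without each of the 4 libraries in turn, with edgeR adjusted p = 0.232 and 0.0678 without shCtrl replicates 3 and 4 and 0.107 and 0.232 without shCxxc5 replicates 3 and 4.

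The largest rise in replicates 3 and 4 was that of Fen1, which encodes the flap endonuclease that trims Okazaki fragments before ligation. Fen1 had 213, 239 and 239 CPM in the shCxxc5 libraries, against 159, 168 and 174 CPM in the shCtrl libraries, a mean of 230.1 ± 15.1 CPM in shCxxc5 and 167 ± 7.52 CPM in shCtrl (SD, n = 3 each). Every shCxxc5 library exceeded every shCtrl library, and the log2 ratios of 0.42, 0.51 and 0.46 in pairs 2, 3 and 4 were close to each other. Over all 6 libraries the fitted log2 fold change was 0.46 (SE 0.087), edgeR adjusted p = 0.940, and in replicates 3 and 4 it was 0.49 (SE 0.039), edgeR adjusted p = 1.74e-10. Exons of Fen1 share 2039 of 2422 bases with Tmem258 and Gm10143 on the other strand, counted together. Gm10143 had 0.313 CPM in shCxxc5 replicate 2 and 0.676 CPM in shCtrl replicate 2. Tmem258 stood at 97.5, 99.1 and 101 CPM in the shCxxc5 libraries, against 90.1, 98.1 and 99.6 CPM in the shCtrl libraries, a log2 fold change of 0.026 (SE 0.046) in replicates 3 and 4.

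The other Okazaki fragment genes rose by less in replicates 3 and 4. The nuclease-helicase gene Dna2 had 103, 123 and 126 CPM in the shCxxc5 libraries, against 99.1, 107 and 110.3 CPM in the shCtrl libraries, and rose by 0.21 (SE 0.044), edgeR adjusted p = 0.000951, in replicates 3 and 4. Lig1, the ligase that seals the fragments, had 118, 156 and 162 CPM in the shCxxc5 libraries, against 144, 143 and 144 CPM in the shCtrl libraries. In pair 2 it was lower in shCxxc5, with a log2 ratio of -0.28, and in pairs 3 and 4 higher, at 0.13 and 0.17, a difference that passed edgeR's test (adjusted p = 5.70e-06). Its rise in replicates 3 and 4, 0.15 (SE 0.041) with an edgeR adjusted p of 0.00850, was lost without shCtrl replicate 3 and without shCxxc5 replicate 4 (edgeR adjusted p = 0.0913 and 0.131) and in DESeq2. Over all 6 libraries Lig1 stood at 0.018, and at -0.032 without shCxxc5 replicate 3 and -0.063 without shCxxc5 replicate 4.

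Of the chromatin assembly and fork protection genes, Chaf1a, Chaf1b, Tipin, Clspn and Wdhd1 rose in replicates 3 and 4, and Timeless, the partner of Tipin in the complex that holds polymerase and helicase together, stood at -0.0046 (SE 0.043). Chaf1a, the large subunit of the histone chaperone CAF-1, had 109.6, 120.5 and 117 CPM in the shCxxc5 libraries, against 116, 103 and 102 CPM in the shCtrl libraries. It rose by 0.22 (SE 0.045), edgeR adjusted p = 0.000567, in replicates 3 and 4, and lay at -0.082 in pair 2 (adjusted p of the difference 0.00172 with edgeR and 0.0877 with DESeq2, which did not pass). Its exons share 4648 of 8854 bases with Ubxn6 on the other strand, which stood at -0.15 (SE 0.057) there. Clspn, which encodes the checkpoint adaptor claspin, had 76.2, 76.3 and 79.3 CPM in the shCxxc5 libraries, against 85.9, 68.2 and 59.6 CPM in the shCtrl libraries. Its shCtrl libraries ranged widely while its shCxxc5 libraries lay close together, and the log2 ratio was -0.17, 0.16 and 0.41 in pairs 2, 3 and 4, and 0.28 (SE 0.059), edgeR adjusted p = 0.00102, in replicates 3 and 4. For Clspn the difference between pair 2 and the others passed with both tools (adjusted p = 0.000189 with edgeR and 0.0321 with DESeq2).

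Tipin had 162, 188 and 187 CPM in the shCxxc5 libraries, against 125, 172 and 168 CPM in the shCtrl libraries. It was higher in each pair, with overlap between the groups, and its rise in replicates 3 and 4 of 0.14 (SE 0.039), edgeR adjusted p = 0.00944, was lost without shCxxc5 replicate 3, shCxxc5 replicate 4 or shCtrl replicate 4 (edgeR adjusted p = 0.0894, 0.0587 and 0.0694) and in DESeq2. The log2 ratio of Tipin was 0.37 in pair 2, against 0.12 and 0.16 in pairs 3 and 4. The adjusted p of that difference was 0.00753 with edgeR and 0.0765 with DESeq2, which did not pass. The calls of Chaf1b (0.13, SE 0.047) and Wdhd1 (0.12, SE 0.043), a scaffold between helicase and polymerase alpha, were lost in several fits and in DESeq2. Without shCtrl replicate 3 Chaf1b stood at 0.079 (edgeR adjusted p = 0.376), and without shCxxc5 replicates 3 and 4 in turn its edgeR adjusted p was 0.137 and 0.207. Wdhd1 stood at 0.081 without shCxxc5 replicate 4 (edgeR adjusted p = 0.413), and its edgeR adjusted p was 0.0509, 0.227 and 0.0993 without shCxxc5 replicate 3, shCtrl replicate 3 and shCtrl replicate 4. The medians of the 6 genes were -0.048, 0.14 and 0.16 in pairs 2, 3 and 4.

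The replication genes also differed between the replicate 2 libraries and the others. With the group in the fit, 24 of the 46 genes were lower in the replicate 2 libraries and 0 were higher at an edgeR adjusted p under 0.05 (52.2% lower, against 36.4% of all genes called, 18.7% of all genes called lower and 17.7% called higher). Among genes with at least the lowest member's mean CPM, 43.2% were called, 25.9% lower and 17.2% higher. The median log2 difference was -0.22, beside -0.0037 over all genes. Rfc3 was lowest at -0.48 (SE 0.064), a mean of 46.6 CPM in the 2 replicate 2 libraries, against 65.2 CPM in the other 4. Gins1 (-0.47, SE 0.073), Rpa2 (-0.41, SE 0.050), Mcm6 (-0.40, SE 0.046) and Mcm7 (-0.40, SE 0.048) were also lower. By function, 6 of 8 clamp, loader and RPA genes, 4 of 6 fork and chromatin genes, 4 of 8 helicase activation genes, 3 of 6 MCM genes, 3 of 6 origin genes, 3 of 9 polymerase genes and 1 of 3 Okazaki fragment genes were lower. Rfc3, Gins1 and Mcm7 were named after their values were seen. The megakaryocyte (12 of 13 higher), erythroid (11 of 12 higher) and interferon-response markers (18 of 18 lower) differed between the same libraries, and their part in this difference was not tested. The count was 14 without shCtrl replicate 3, and was 15 without shCtrl replicate 4 and 15 without shCxxc5 replicate 4. Shares of all genes called in these fits are not given here.

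**Figure D5:**
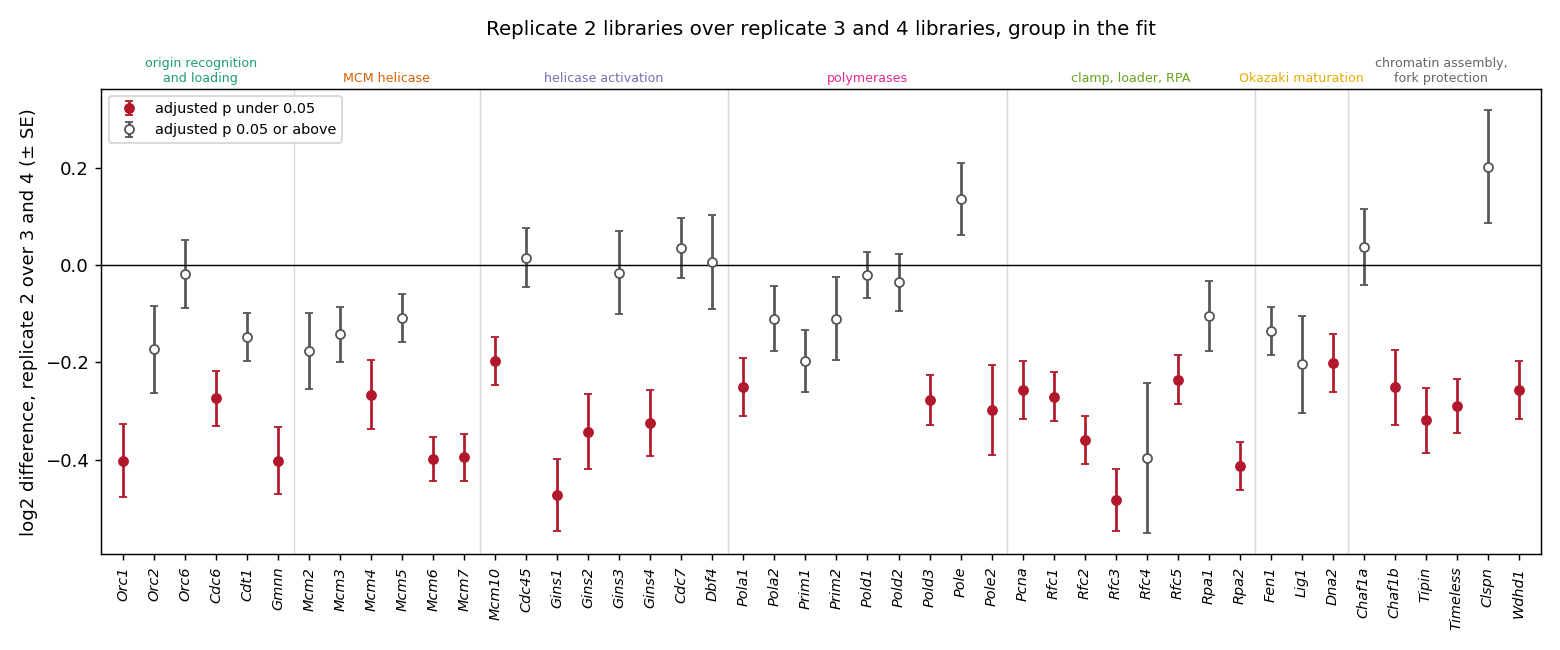
Fitted log2 difference between the replicate 2 libraries and the replicate 3 and 4 libraries (vertical axis, points with SE, group in the fit) for each of the 46 genes. All 24 filled points, which passed edgeR's test after adjustment, lie below 0, down to -0.48 for Rfc3.

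Other genes of the replication machinery, 33 listed ones, were measured as well. In replicates 3 and 4, 12 rose (36.4%, against 11% of all genes) and 2 fell (6.06%, against 9%), with a median of 0.10. Among all genes with a mean CPM of at least 25.7, 19.4% were called higher and 11.2% lower. DESeq2 called 9 of the listed genes (all genes 9.53%), Mtbp alone on the lower side. Over all 6 libraries edgeR called 0, with 1 at an unadjusted p under 0.05 (all genes 3.93%). Pole3, a histone-fold subunit of polymerase epsilon, had 88.9, 95.7 and 94.6 CPM in the shCxxc5 libraries, against 73.0, 80.3 and 81.6 CPM in the shCtrl libraries, and rose by 0.24 (SE 0.048) in replicates 3 and 4, edgeR adjusted p = 0.000546. Slbp, which binds the stem-loop of replication-dependent histone messages, had 131, 139 and 145 CPM in the shCxxc5 libraries, against 119, 118 and 128 CPM in the shCtrl libraries, and rose by 0.22 (SE 0.046), edgeR adjusted p = 0.000713. In both, every shCxxc5 library was above every shCtrl library. The histone chaperone Asf1a had 76.9, 67.8 and 75.3 CPM in the shCxxc5 libraries, against 51.7, 68.9 and 67.0 CPM in the shCtrl libraries, and did not pass (0.072, SE 0.057, edgeR adjusted p = 0.428). The 2 that fell, named after their values were seen, were Mtbp, which works with treslin in origin firing, at -0.44 (SE 0.059), and Pold4, the small subunit of polymerase delta, at -0.25 (SE 0.075).

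Of 17 E2F, RB and partner genes, 3 rose and 3 fell in replicates 3 and 4. That is 17.6% in each direction, near the 19.4% higher and 11.2% lower of all genes with at least the mean CPM of the lowest replication gene (11% and 9% of all tested genes). DESeq2 called 2 of them, Tfdp1 and Rbl2 (all genes 9.53%). Over all 6 libraries edgeR called 0, and 0% of all genes. At an unadjusted p under 0.05 there were 3 (17.6%, against 3.93% of all genes). Tfdp1, the DNA-binding partner of E2F proteins, had 270.1, 269 and 255 CPM in the shCxxc5 libraries, against 232, 225 and 229 CPM in the shCtrl libraries, without overlap, and rose by 0.21 (SE 0.038), edgeR adjusted p = 0.000137, in replicates 3 and 4. Rbl2, which encodes the pocket protein p130 of resting cells, had 86.5, 76.7 and 79.1 CPM in the shCxxc5 libraries, against 105, 97.8 and 93.4 CPM in the shCtrl libraries, without overlap on the lower side, and stood at -0.29 (SE 0.050), edgeR adjusted p = 6.84e-05. Tfdp2 had 81.9, 85.5 and 83.2 CPM in the shCxxc5 libraries, against 96.6, 91.1 and 97.3 CPM in the shCtrl libraries, again without overlap, and stood at -0.15 (SE 0.050), edgeR adjusted p = 0.0327. E2f1 (0.16), E2f2 (0.051) and E2f3 (0.041), the activating E2F factors, were not called there. With the replicate block 8 genes of this list passed (all genes 23.3%), the added ones being E2f4 and E2f7 (edgeR adjusted p = 0.0383 and 0.0484). The other genes that passed, named after their values were seen, were E2f8 at 0.30 (SE 0.088) and Mybl2 at 0.23 (SE 0.060), and Rb1 on the lower side at -0.25 (SE 0.067).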

How the data were processed

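The authors deposited raw read counts per Ensembl gene for 6 libraries of sorted cells. Per the submitters' processing notes, STAR 2.5.2b, featureCounts 1.5.1 and DESeq2 were used with GRCm38; no source used here gives the annotation release or strand setting. Symbols and exon lengths came from GENCODE M21 (GRCm38), which matched 49412 of 49671 identifiers, and the others held 0.0557% of counts. Counts were tested with edgeR 4.0.16 (R 4.3.3): TMM scaling, filterByExpr (14637 genes, 14193 in replicates 3 and 4), robust quasi-likelihood test, Benjamini-Hochberg adjustment over all tested genes, threshold 0.05. SE is the absolute log2 fold change over the square root of F. CPM is TMM-scaled, and log2 ratios add a prior count of 2. The code was tested on simulated counts whose changes were larger than those of the replication genes. That test does not cover changes as small as theirs.

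The genes, lists, comparisons and tests were chosen with earlier results of these data known, among them that replicate 2 stands apart. Genes given by library were, per functional group, the 3 of smallest unadjusted p over all 6 libraries and the 1 of smallest p in replicates 3 and 4, and the 3 of smallest p per other list. Cxxc5 and Ly6a are given by library as checks of labels and sort. Gse1, Gm10143 and Tmem258 are given by library for their exon overlap with Gins2 and Fen1. Other genes named beyond this rule were chosen after their values were seen. Most of these are given with fitted values or ratios, but E2f7, E2f8 and Foxm1 are given by library and Mcm2 is plotted by library.

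Deviations from the group means correlated at 0.670, 0.554 and 0.489 between libraries numbered 2, 3 and 4. Libraries 3 and 4 of opposite groups correlated at 0.489 and 0.475. The group means include replicate 2, which stands apart in both groups, so this check cannot decide whether numbers 3 and 4 pair the samples. Replicates 3 and 4 of a group differed by a chi-square of 2.28 to 2.33 per degree of freedom, above sampling noise (1), against 88.0 to 153 with replicate 2. Alternatives were other scalings, DESeq2 1.42.0, limma-voom 3.58.1, other filters, the replicate block and leaving out each library. RefSeq promoters were searched for exact letters.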

Additional observations from a re-analysis of the deposited data

How the results depend on the processing

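Over all 6 libraries, the count of replication genes called was 0 under every scaling, filter and left-out library tried in edgeR and with limma-voom, and 1 (Fen1) with DESeq2 and 1 with DESeq2 and the replicate block. With the replicate block in edgeR it was 0, and the median log2 fold change was 0.11. That median ran from 0.038 to 0.17 when 1 library was left out and stayed above 0. Cxxc5, not called by edgeR (log2 fold change -2.25, adjusted p = 0.940), was called by DESeq2 at -2.25 (adjusted p = 4.22e-05) and, with the block, at -2.34 (adjusted p = 0.00894). In replicates 3 and 4 the count of 24 became 15 with DESeq2, 8 with DESeq2 and the replicate block, and 14 to 22 when 1 library was left out; a lone library is then assumed to vary like the other group. It was 25 with the replicate block in edgeR. All calls were on the higher side. For the replicate 2 libraries against the others the count of 24 ran from 14 to 34 when 1 library was left out, with 1 and 3 on the higher side without replicate 2 of shCtrl and shCxxc5. Among the 22 genes given by library, direction turned in 4 cases: Pola1 over all 6 libraries at -0.014 without shCtrl replicate 2, Lig1 at -0.032 and -0.063 without shCxxc5 replicates 3 and 4, and Pole2 in replicates 3 and 4 at -0.023 without shCtrl replicate 3; none of these 3 genes was called in the comparison where it turned, and the highest leave-out values were 0.16, 0.15 and 0.18. The cause was not tested. For the 22 genes given by library, a call in replicates 3 and 4 was lost in 30 gene and setting combinations, and 233 kept their side of the threshold. Of all 24 calls, single settings lost from 0 to 16. In replicates 3 and 4 the block added the call of Gmnn (adjusted p = 0.0359) and lost none of the 24. It raised the calls among the other replication genes to 15, against 14 without it, and among the E2F and RB genes to 8, against 6. Of all genes, 23.3% were called with the block and 20% without it. With 2 libraries per group each call rests on single libraries. Shares of all genes called when a library was left out are not given here, for either comparison.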

Other observations

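The repressive E2F genes E2f8 and E2f7, which are themselves transcribed in S phase, were high in shCtrl replicate 2. E2f8 had 44.3, 28.8 and 28.1 CPM in the shCxxc5 libraries, against 66.4, 24.9 and 20.8 CPM in the shCtrl libraries, and E2f7 had 18.4, 16.2 and 14.5 CPM in the shCxxc5 libraries, against 36.2, 13.8 and 11.4 CPM in the shCtrl libraries. Foxm1, a driver of G2 and M phase transcription, had 38.6, 27.8 and 27.0 CPM in the shCxxc5 libraries, against 51.8, 29.7 and 27.6 CPM in the shCtrl libraries. These 3 stood above the other 4 libraries in both replicate 2 libraries, by a fitted log2 difference of 1.11 (SE 0.20), 0.93 (SE 0.27) and 0.68 (SE 0.10), edgeR adjusted p = 0.00787, 0.0405 and 0.00408. They were named after their values were seen. Of the 17 E2F, RB and partner genes, 4 were higher and 2 lower in the replicate 2 libraries. That is 35.3% called, against 36.4% of all genes. The CCAAT box, read on both strands, occurred in 50.0% of the 44 promoter windows of the replication genes and 33.8% of all windows. The letters TTTGAA, found in the CHR element of G2 and M phase genes, occurred in 13.6% of the 44 windows and 16.0% of all windows. For the variant TTCGAA, also searched, the shares were 4.55% (2 of the 44 windows) and 1.34%.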
